A study of Mus musculus with 4 samples.

Results

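The genes described here encode proteins that write, erase or read histone marks or move nucleosomes: the Polycomb complexes, the heterochromatin protein HP1, lysine methyltransferases and demethylases, acetyltransferases and deacetylases, bromodomain proteins, and the SWI/SNF, CHD and ISWI remodellers. They were taken by symbol from the mouse array, by family name (such as Kdm, Kmt, Setd, Hdac, Smarc and Chd) plus Eed, Suz12, Jarid2, Rnf2, Ring1, Bmi1, Ehmt1 and Ehmt2. No measured value entered this rule, but the list was chosen with earlier results of these data known. The sex-linked genes Kdm5c, Kdm5d and Kdm6a were left out. This gave 79 of 12393 measured genes, covered by 150 probe sets, and 44 of them had more than 1 probe set. Each gene is represented by its brightest probe set unless stated otherwise.

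RNA was measured on 4 arrays, with 2 from each group. The stem arrays held RNA of Lgr5(hi) cells sorted by flow cytometry from wild-type C57BL/6 mice. The enterocyte arrays held RNA of differentiated villus cells, isolated with EDTA, from C57BL/6 mice with a conditional knockout of Atoh1, the transcription factor needed for secretory cells. All animals were 4 to 6 weeks old, the tissue was proximal intestinal epithelium, and the labels of both groups carry tamoxifen at 1 mg per day for 5 days with a wait of 5 days. The sources used here do not give the promoter that drove the Cre recombinase or say whether animals were pooled. Titles call the arrays biological replicates without naming an animal, so p-values measure the spread between these arrays only. Cell type, genotype and isolation method changed together, and their parts cannot be told apart.

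Chromatin regulators set which genes a cell can use. Polycomb repressive complex 2 (PRC2) methylates a lysine of the histone H3 tail, and PRC1 binds that mark and adds ubiquitin to histone H2A; together they keep genes silent. SWI/SNF complexes use ATP to slide or evict nucleosomes and open chromatin. In the intestine, stem cells at the crypt base divide and their daughters stop dividing as they become enterocytes on the villus.

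Stem and enterocyte markers differed in the direction of the labels, but neither group held markers of 1 cell type only. All 10 measured stem cell markers were lower and all 9 measured enterocyte markers higher in the enterocyte arrays (limma, Benjamini-Hochberg adjusted p under 0.05), with Lgr5 set by the sort and Atoh1, the deleted gene, at a log2 difference of -2.40 ± 0.15 (SE, n = 2 arrays per group). Other markers moved with the groups too. All 16 measured proliferation genes were lower, their summed intensity going from 34728 and 36894 (stem) to 10686 and 10884 (enterocyte). Of 14 lymphocyte markers 12 were higher, the sum going from 749 and 1024 to 9022 and 12104; Cd8b1 and Cd2 lay below background in both groups. All 5 goblet and all 4 endocrine markers were lower, both tuft markers were higher, and of 3 Paneth markers 1 was lower and 2 did not pass, with enterocyte sums of 623 and 6032 that differed widely between the arrays. Secretory markers were bright in the stem arrays. Their sums there ran from 34336 to 46995 (Paneth), 22681 to 24613 (goblet) and 5363 to 6639 (endocrine). The 10 stem markers summed to between 29506 and 35402 in these arrays. Of 6 stromal markers 1, Vim, was lower and 4 lay below background in both groups. Array medians lay between 102.4 and 110.6 intensity units. The part of these cell mixtures and of proliferation in the differences below was not tested, and in such bulk samples fewer cells of a type and less RNA per cell cannot be told apart.

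Chromatin regulators were mostly lower in enterocytes. Of the 79 genes 46 were lower, 3 were higher (Kdm7a, Kat2b and Setd3) and 30 did not pass the test (limma, adjusted p under 0.05 over all 12393 genes). Over all genes the same call was made in 40.6%, lower in 22.4% and higher in 18.2%, against 58.2% and 3.80% of the chromatin regulators. By at least 2-fold 30 were lower, 38.0% of the 79 against 13.6% of all genes, and 2 were higher, with 10.8% of all genes as background. The median log2 difference, enterocyte minus stem, was -0.86, beside -0.0026 over all genes, and 71 of the 79 differences (89.9%) were below 0 against 50.5% of all genes. Values in the 2 groups did not overlap in 63 genes that were lower and 6 that were higher, where the backgrounds are 34.8% and 30.5%. Few of these genes were dim: 74 of 79 exceeded the background level, log2 5.90, in at least 1 group, and of the 8400 genes on the array that did so 32% were lower and 25.2% higher. The background level is the 90th percentile of 24 genes of other organs.

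Fewer calls were made with 1 array left out, in the set and over all genes alike. The fit without stem replicate 1 gave a median difference of -0.82 in the set, and that without stem replicate 2 gave -0.77. Such a fit has 1 residual degree of freedom and takes the spread between arrays from the other pair alone, assuming that the lone array varies like it. For that reason the calls of these fits are not counted here. Without enterocyte replicate 1 the median was -0.75, and without enterocyte replicate 2 it was -0.88. The median difference stayed between -0.88 and -0.75 when any of the arrays was left out.

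**Figure D1:**
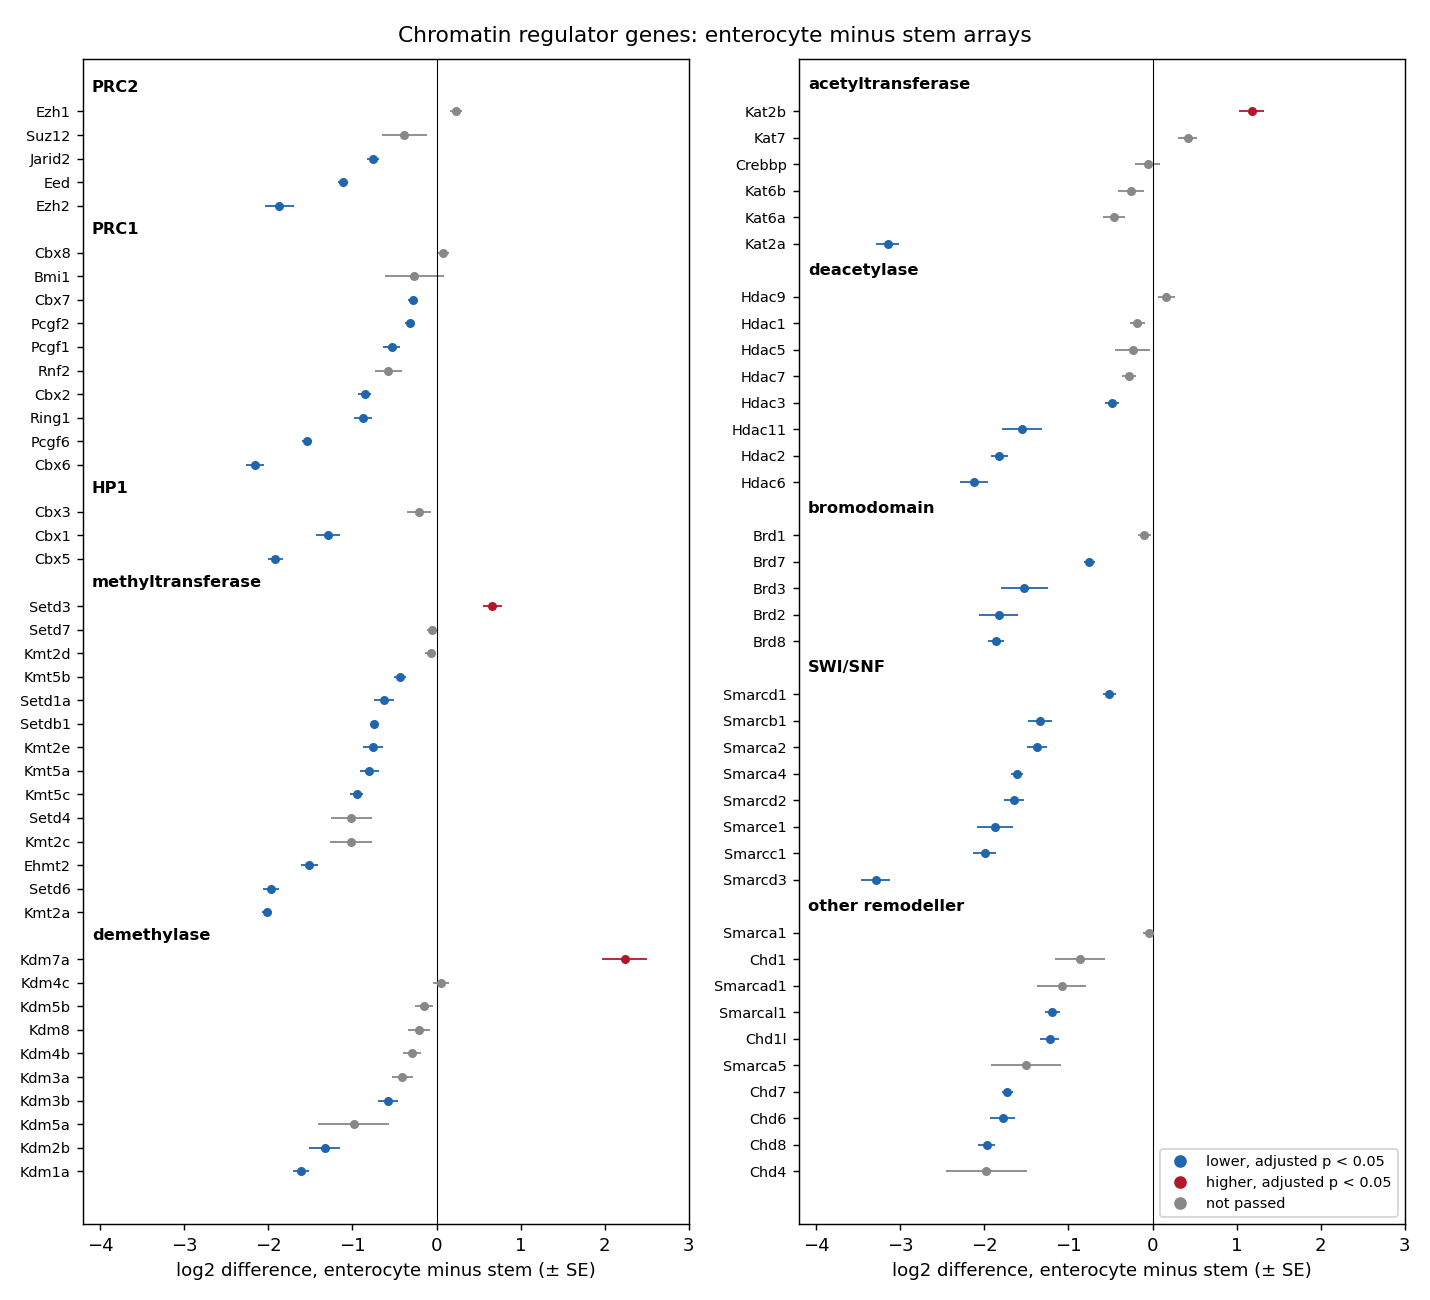
Log2 difference (enterocyte minus stem) of each of the 79 genes, grouped by role, with bars of 1 SE (n = 2 arrays per group) and colours for the call at an adjusted p under 0.05. Of the 79 points 71 lie left of 0, and the 3 genes called higher are Kdm7a, Kat2b and Setd3.

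**Figure D2:**
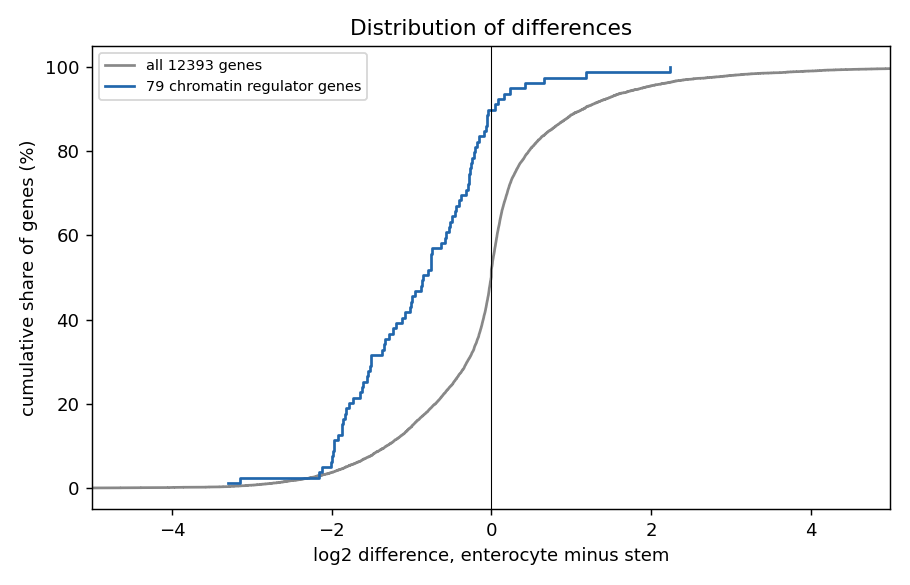
Cumulative share of genes (percent) against the log2 difference, enterocyte minus stem, for the 79 chromatin regulators and all 12393 genes. At a difference of 0 the curve of the chromatin regulators has reached 89.9% and that of all genes 50.5%.

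In PRC2, 3 of 5 genes were lower, 0 were higher and 2 did not pass, beside 22.4% lower and 18.2% higher over all genes. Ezh2, the methyltransferase of the complex, measured log2 10.72 and 10.62 in stem and 8.60 and 9.01 in enterocyte arrays. It was 3.66-fold lower (-1.87 ± 0.17 SE, adjusted p = 0.00747 by limma), and the groups were well apart. Eed, the subunit that binds the methyl mark, went from 10.23 and 10.17 to 9.08 and 9.09, which is 2.17-fold lower (-1.12 ± 0.06 SE). Jarid2, an accessory subunit that helps PRC2 reach chromatin, fell 1.69-fold from 10.74 and 10.75 to 10.06 and 9.92. That call rests on its brightest probe set, since its only probe set without a suffix that marks possible cross-hybridisation gave 0.08 and did not pass.

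Ezh1, the other methyltransferase of PRC2, did not follow Ezh2. It read 8.70 and 8.83 in stem and 9.01 and 8.99 in enterocyte arrays, a difference of 0.23 (95% interval 0.01 to 0.46, adjusted p = 0.0954 by limma). This interval does not overlap that of Ezh2, -2.40 to -1.34, though the difference between these genes was not itself tested. Suz12, the scaffold of PRC2, read 10.77 and 10.89 in stem and 10.12 and 10.77 in enterocyte arrays, so that 1 enterocyte array lay near the stem level (-0.38, 95% interval -1.19 to 0.43). Its 6 probe sets ran from -0.97 to 0.76 and none passed. Among 6 partner genes of PRC2, the histone-binding proteins Rbbp7 (-1.51 ± 0.13 SE) and Rbbp4 (-1.28 ± 0.13 SE) were lower and the other 4 did not pass. Over all the partner lists of this report 24 of 55 measured genes were lower and 0 higher, beside 22.4% and 18.2% of all genes.

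In PRC1, 7 of 10 genes were lower, 0 were higher and 3 did not pass, beside 22.4% lower and 18.2% higher over all genes. The chromodomain subunit Cbx6 went from 9.81 and 9.59 in stem to 7.59 and 7.50 in enterocyte arrays, 4.46-fold lower (-2.16 ± 0.11 SE, adjusted p = 0.00341 by limma). Pcgf6, which defines a variant PRC1, went from 10.04 and 9.95 to 8.45 and 8.44, 2.92-fold lower, and all 3 of its probe sets were lower. Both genes had tight replicates. Ring1, a ubiquitin ligase of the complex, fell 1.84-fold from 7.84 and 7.73 to 7.02 and 6.80, and Cbx2 fell 1.81-fold.

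The partner ligase Rnf2 read 8.67 and 8.39 in stem and 7.83 and 8.09 in enterocyte arrays and did not pass (-0.57, 95% interval -1.06 to -0.09, adjusted p = 0.0713 by limma). Bmi1, a core subunit that has also been used as a marker of crypt cells, read 8.76 and 8.35 in stem and 7.90 and 8.68 in enterocyte arrays. Its groups overlapped, and the wide interval of -1.34 to 0.81 leaves a change of either sign possible. Pcgf2 and Cbx7 passed as lower at -0.32 and -0.28 but lay below background in both groups, so these calls concern dim signals. Pcgf1 passed at -0.53, but its stem arrays, at 5.87 and 6.02, were near the background level and its enterocyte arrays below it. Cbx8 gave 0.08 and overlapping groups. Of 4 measured PRC1 partners, 1 was lower, Scmh1 at -1.57 ± 0.30 SE, and 3 did not pass, beside 22.4% lower over all genes.

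HP1 proteins bind the methyl mark of heterochromatin, and of their 3 genes 2 were lower, beside 22.4% of all genes. Cbx5, encoding HP1 alpha, went from 10.27 and 10.39 in stem to 8.34 and 8.49 in enterocyte arrays, 3.77-fold lower (-1.92 ± 0.09 SE, adjusted p = 0.00337 by limma). Cbx1, encoding HP1 beta, went from 10.77 and 10.65 to 9.58 and 9.26, 2.44-fold lower (-1.29 ± 0.14 SE). Probe sets of both genes disagreed: 2 of 5 passed as lower for each and the others did not pass. The 1 probe set of Cbx1 without an _a_at or _x_at suffix lay near the background level and gave 0.17. Cbx3, encoding HP1 gamma, gave -0.21 (95% interval -0.65 to 0.23) on a probe set near the background level.

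Among lysine methyltransferases 9 of 14 genes were lower, 1 was higher and 4 did not pass, beside 22.4% lower and 18.2% higher over all genes. Kmt2a, which methylates histone H3 at active promoters, went from 8.79 and 8.86 in stem to 6.81 and 6.81 in enterocyte arrays, 4.04-fold lower (-2.01 ± 0.06 SE, adjusted p = 0.00261 by limma). Its second probe set was also lower, by less (-0.50). Setd6, a methyltransferase that also acts on non-histone proteins, went from 8.75 and 8.92 to 6.92 and 6.82, 3.91-fold lower, with both probe sets lower. Ehmt2, which places the repressive methyl mark of euchromatin, went from 10.47 and 10.34 to 8.99 and 8.79, 2.85-fold lower (-1.51 ± 0.11 SE). These were the largest falls of the family, and the groups were apart in each.

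Smaller falls were found in enzymes of histone H4 methylation: Kmt5c fell 1.93-fold, Kmt5a 1.74-fold and Kmt5b 1.36-fold. Kmt5b rested on 1 of 4 probe sets, the other 3 lying between 0.06 and 0.40 without passing. Setdb1, the methyltransferase of heterochromatin and silenced repeats, went from 8.43 and 8.38 to 7.69 and 7.65, 1.67-fold lower. Its other probe sets lay below background in both groups and did not pass, the brighter of them at -0.15. Kmt2e fell 1.69-fold and Setd1a, of the complexes that mark active promoters, 1.55-fold. Kmt2c (-1.02) and Setd4 (-1.01) differed by about as much but missed the threshold at adjusted p = 0.0564 and 0.0556 by limma, with replicates 0.58 and 0.59 apart in the stem and enterocyte groups respectively. The other 2 probe sets of Setd4 were called lower, at -0.96 and, below background, at -0.49. Kmt2d (-0.07) and Setd7 (-0.05, below background) did not pass.

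Setd3, which methylates actin, was the methyltransferase that rose. It read 8.90 and 8.65 in stem and 9.40 and 9.46 in enterocyte arrays, 1.58-fold higher (0.66 ± 0.11 SE, adjusted p = 0.0255 by limma), with no overlap between the groups. When values under the background level were raised to it, the difference of Setd3 was unchanged, since it lay above that level. The call was still lost in that fit (adjusted p = 0.0665 by limma). Outside the families above, 7 of 8 measured writers were lower and 1 did not pass, beside 22.4% lower over all genes. Smyd2 showed the largest fall (-2.64 ± 0.12 SE), and the arginine methyltransferase Prmt1 gave -2.47 ± 0.13 SE. Of 5 measured partners of the COMPASS complexes, which contain Kmt2 and Setd1 enzymes, 4 were lower, beside the same 22.4%. Cxxc1 led them (-1.20 ± 0.12 SE).

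Lysine demethylases remove methyl groups from histones, and of their 10 genes 3 were lower, 1 was higher and 6 did not pass. The 30% lower is near the 22.4% of all genes and the 32% of genes above background in at least 1 group. Kdm1a, the flavin-dependent demethylase of corepressor complexes, went from 10.92 and 10.72 in stem to 9.19 and 9.22 in enterocyte arrays, 3.07-fold lower (-1.62 ± 0.09 SE, adjusted p = 0.00405 by limma), and both its probe sets were lower. Kdm2b, which recruits a variant PRC1 to unmethylated CpG islands, went from 8.95 and 8.60 to 7.58 and 7.31, 2.51-fold lower (-1.33 ± 0.18 SE). Kdm3b fell 1.49-fold. Kdm5a gave -0.99 without passing, since the stem arrays read 9.03 and 9.97 (95% interval -2.27 to 0.29). Kdm5b, an eraser of the promoter mark, was -0.15 (95% interval -0.49 to 0.19), with overlapping groups.

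Kdm7a, a demethylase with a PHD finger, was the gene of this set with the largest rise. It read 4.71 and 4.64 in stem arrays, below background, and 6.57 and 7.25 in enterocyte arrays, above it. The fold was at least 2.02 against the background level, with a difference of 2.24 ± 0.27 SE on the values as deposited (adjusted p = 0.0123 by limma). When values under the background level were raised to it, the difference was 1.01 and the call was lost (adjusted p = 0.155), so its size is uncertain on this single probe set.

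Acetyltransferases went both ways, with 1 of 6 genes lower and 1 higher, beside 22.4% and 18.2% of all genes. Kat2a, the acetyltransferase of the SAGA coactivator, read 9.97 and 10.13 in stem and 7.04 and 6.76 in enterocyte arrays, 8.88-fold lower (-3.15 ± 0.14 SE, adjusted p = 0.00320 by limma). Its close relative Kat2b read 9.32 and 9.10 in stem and 10.24 and 10.54 in enterocyte arrays, 2.27-fold higher (1.18 ± 0.15 SE, adjusted p = 0.0137). The groups of each gene were apart, in opposite directions. A second probe set of Kat2b was also higher (1.40). For Kat2a a second one was lower (-1.82) and the remaining one did not pass (-0.03). Of the other 4 acetyltransferases none passed by limma, and 2 of these had an unadjusted p under 0.05: Kat7 at 0.42 and Kat6a at -0.46. The second probe set of Kat7 went the other way without passing (-0.42). Crebbp, a coactivator acetyltransferase, was -0.06 (95% interval -0.50 to 0.38).

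Of 8 deacetylases 4 were lower, 0 were higher and 4 did not pass, beside 22.4% lower and 18.2% higher over all genes. Hdac2, a class I enzyme of nuclear corepressors, went from 9.49 and 9.35 in stem to 7.68 and 7.51 in enterocyte arrays, 3.54-fold lower (-1.82 ± 0.10 SE, adjusted p = 0.00378 by limma). Hdac1, its partner in the same complexes, read 9.97 and 9.92 in stem and 9.86 and 9.68 in enterocyte arrays and did not pass (-0.18, 95% interval -0.46 to 0.10). The interval of Hdac2, -2.13 to -1.52, lies wholly below that of Hdac1, though no test of the difference was run. Hdac3 lay between these, 1.40-fold lower (-0.49 ± 0.08 SE).

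Hdac6, a cytoplasmic deacetylase of tubulin, went from 8.74 and 8.76 to 6.83 and 6.42, 4.36-fold lower (-2.13 ± 0.17 SE, adjusted p = 0.00602 by limma). Hdac11 went from 9.82 and 9.32 to 8.17 and 7.87, 2.93-fold lower, with both probe sets lower. Hdac5 and Hdac7 did not pass, and Hdac9 lay below background. Of 15 measured corepressor partners 5 were lower and 10 did not pass, with Mta1, a subunit of the NuRD deacetylase complex, lowest at -2.06 ± 0.17 SE. That share is close to the 32% lower among genes above background in at least 1 group. Of the 4 measured NAD-dependent deacetylases 0 passed by limma, and 2, Sirt2 (0.27) and Sirt3 (0.38), had an unadjusted p under 0.05.

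Of 5 bromodomain genes, whose products bind acetylated histones, 4 were lower and 1, Brd1 (-0.10), did not pass, beside 22.4% lower over all genes. Brd8, of the Kat5 acetyltransferase complex, went from 10.47 and 10.28 to 8.50 and 8.54, 3.63-fold lower (-1.86 ± 0.09 SE, adjusted p = 0.00341 by limma). Brd2 went from 11.94 and 12.51 to 10.38 and 10.41, 3.56-fold lower, and Brd3 from 9.37 and 10.05 to 8.28 and 8.09, 2.87-fold lower. These last genes, both of the BET class, had stem replicates 0.57 and 0.68 apart, against 0.19 for Brd8. The second probe set of Brd2 was also lower, by less (-0.60). For Brd3 a second one was lower (-0.76) and the remaining one did not pass (-0.10). Brd7, a subunit of a SWI/SNF form, fell 1.69-fold.

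SWI/SNF was the role in which every measured gene passed: all 8 were lower, with a median of -1.63 and 7 of them at least 2-fold lower. Over all genes 22.4% were lower, and 13.6% by at least 2-fold. The catalytic ATPase Smarca4 read 11.31 and 11.35 in stem and 9.78 and 9.66 in enterocyte arrays, 3.05-fold lower (-1.61 ± 0.07 SE, adjusted p = 0.00320 by limma), with both probe sets lower. The alternative ATPase Smarca2 read 8.77 and 8.78 in stem and 7.54 and 7.26 in enterocyte arrays, 2.59-fold lower (-1.37 ± 0.12 SE). In both ATPase genes the groups did not overlap, but the other probe set of Smarca2 gave -1.82 and did not pass.

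The core and accessory subunits followed. Smarcc1, the scaffold subunit, went from 11.21 and 10.98 to 9.20 and 8.99, 4.00-fold lower (-2.00 ± 0.13 SE). Smarcb1, a core subunit known as a tumour suppressor, went from 10.06 and 9.81 to 8.71 and 8.48, 2.53-fold lower (-1.34 ± 0.14 SE). Smarce1, which has a DNA-binding HMG domain, went from 10.44 and 10.53 to 8.35 and 8.87, 3.67-fold lower. All probe sets of Smarcb1 and Smarce1 were lower, the second of Smarce1 by less (-0.67). Of the 2 probe sets of Smarcc1 the dimmer one had a like difference (-1.92) but did not pass.

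The Smarcd subunits are alternatives for 1 position in the complex and link it to transcription factors. Smarcd3, known from heart and muscle, read 8.41 and 8.66 in stem and 5.41 and 5.08 in enterocyte arrays, the latter below background. It was at least 6.23-fold lower (-3.29 ± 0.17 SE, adjusted p = 0.00353 by limma), the largest fall in the whole set on the values as deposited. Smarcd2 went from 12.99 and 12.89 to 11.42 and 11.17, 3.13-fold lower, with all 3 probe sets lower. Smarcd1 fell least, 1.43-fold, from 6.96 and 7.07 to 6.55 and 6.45. Of 13 measured SWI/SNF partners 5 were lower and 8 did not pass, beside 22.4% lower over all genes and 32% among those above background. Bcl7c was lowest (-2.02 ± 0.19 SE), the actin-like subunit Actl6a gave -1.14 ± 0.15 SE, and Arid1a, the large DNA-binding subunit, -0.41 ± 0.07 SE.

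**Figure D3:**
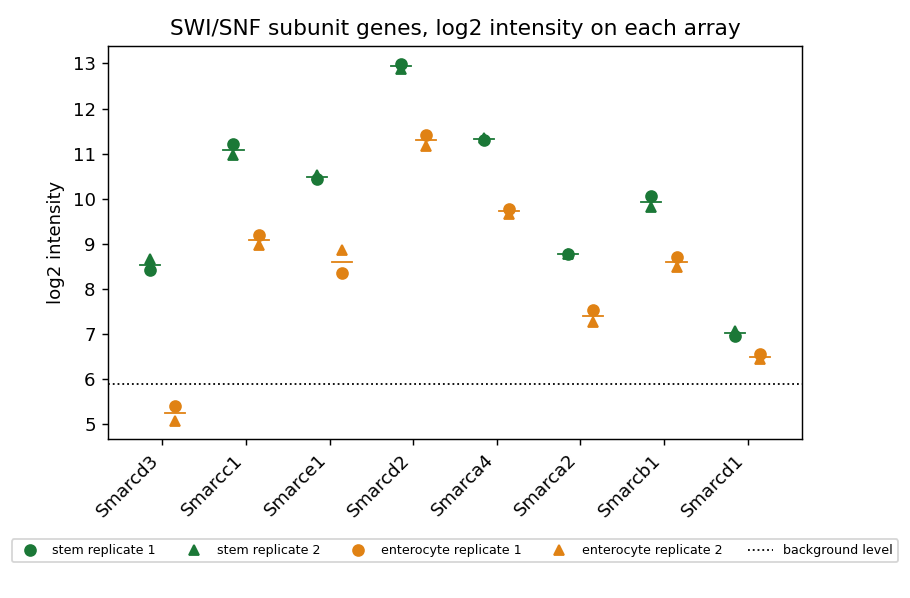
Log2 intensity of the 8 SWI/SNF subunit genes on each of the 4 arrays, with short lines at group means and a dotted line at the background level of 5.90. In every gene both enterocyte arrays lie below both stem arrays, and only Smarcd3 falls under the dotted line.

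Of the other 10 remodellers 5 were lower, 0 were higher and 5 did not pass, beside 22.4% lower and 18.2% higher over all genes. Chd8, a remodeller that binds beta-catenin, went from 10.67 and 10.84 to 8.86 and 8.71, 3.93-fold lower (-1.97 ± 0.10 SE, adjusted p = 0.00355 by limma). Chd7 went from 8.57 and 8.57 to 6.78 and 6.90, 3.31-fold lower, and Chd6 from 8.24 and 7.90 to 6.22 and 6.35, 3.44-fold lower. All were single probe sets with the groups far apart. Chd1l, which acts at DNA breaks, fell 2.34-fold, and Smarcal1, which remodels stalled replication forks, 2.28-fold.

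Several remodellers differed by as much but varied between replicates. Chd4, the ATPase of the NuRD complex, read 10.60 and 11.80 in stem and 9.33 and 9.12 in enterocyte arrays (-1.98, 95% interval -3.45 to -0.51, adjusted p = 0.0541 by limma). Another of its 3 probe sets, with close replicates, was called lower at -1.63 ± 0.06 SE. Smarca5, the ISWI ATPase, read 11.20 and 11.50 in stem and 9.34 and 10.35 in enterocyte arrays (-1.51, adjusted p = 0.0718). Smarcad1 (-1.08) and Chd1 (-0.86) showed the same kind of spread between the enterocyte arrays and did not pass. Their other probe sets went the other way without passing, at 0.14 for Smarcad1 and at 0.76 and 0.01 for Chd1. Smarca1 lay below background on all arrays. Over the whole set, 10 of the 30 genes that did not pass had replicates of a group more than log2 0.5 apart. Of the 49 that passed, 5 did. The test divides by the spread between replicates, so some such split is built into it.

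**Figure D4:**
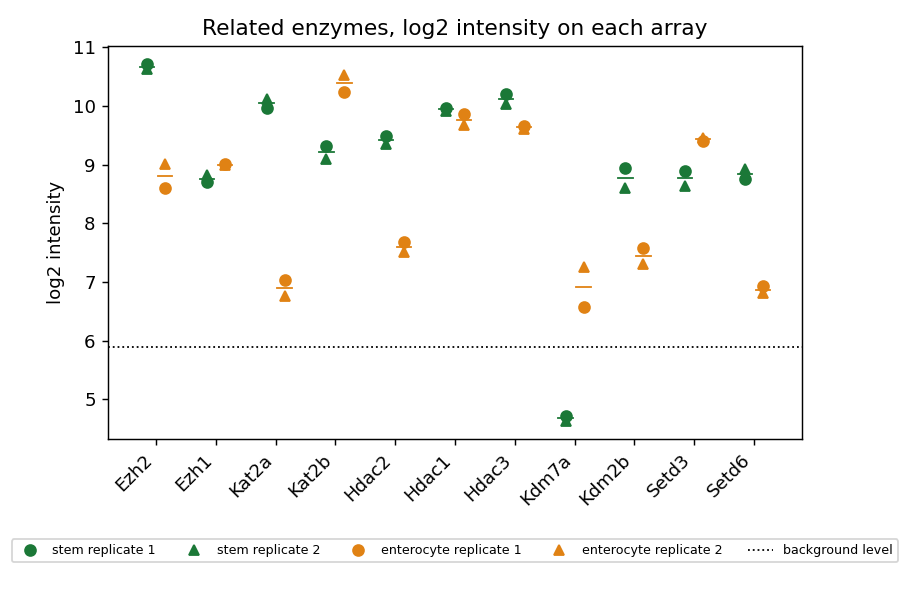
Log2 intensity of related enzymes on each of the 4 arrays (Ezh2 and Ezh1, Kat2a and Kat2b, Hdac2, Hdac1 and Hdac3, Kdm7a and Kdm2b, Setd3 and Setd6), with group means as short lines and the background level of 5.90 dotted. Ezh2, Kat2a and Hdac2 are lower in both enterocyte arrays, Kat2b is higher in both, and Ezh1 and Hdac1 differ by 0.23 and -0.18 without passing the test.

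Probe sets of the same gene gave no opposite calls. Fitted one by one over 20380 probe sets, 68 of the 150 were lower, 4 higher and the rest did not pass, beside 19.6% lower and 17.8% higher among all probe sets, and 24 lay below background in both groups. Of the 44 genes with several probe sets, 11 had all probe sets lower (Brd2, Hdac11, Kdm1a, Kmt2a, Kmt5a, Pcgf6, Setd6, Smarca4, Smarcb1, Smarcd2 and Smarce1) and 1, Kat2b, had all higher. In 21 some probe sets passed and some did not, and in 11 none passed. Taking the dimmest probe set of each gene left 29 lower and 2 higher, with a median of -0.46, beside 1943 lower and 1950 higher over all genes. This ended 19 calls: those of Kat2b and of the lower genes Brd3, Brd8, Cbx1, Cbx2, Cbx5, Cbx7, Eed, Ehmt2, Jarid2, Kmt2e, Kmt5b, Pcgf2, Setd1a, Setdb1, Smarca2, Smarcal1, Smarcc1 and Smarcd1. Of these Kat2b (1.40), Smarca2 (-1.82), Smarcc1 (-1.92), Kmt2e (-0.95) and Setd1a (-0.97) kept differences of like size or larger. Raising values under the background level to that level ended 13 calls, at adjusted p of 0.0521 and above by limma. These were Kdm7a and Setd3 and the lower genes Brd3, Hdac3, Hdac11, Kdm2b, Kdm3b, Kmt2e, Kmt5a, Setd1a, Pcgf1, Pcgf2 and Cbx7. Of these, only Kdm7a, Pcgf1, Pcgf2 and Cbx7 changed in difference. The other differences stayed the same, and only their p-values moved with the fit over all genes.

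**Figure D5:**
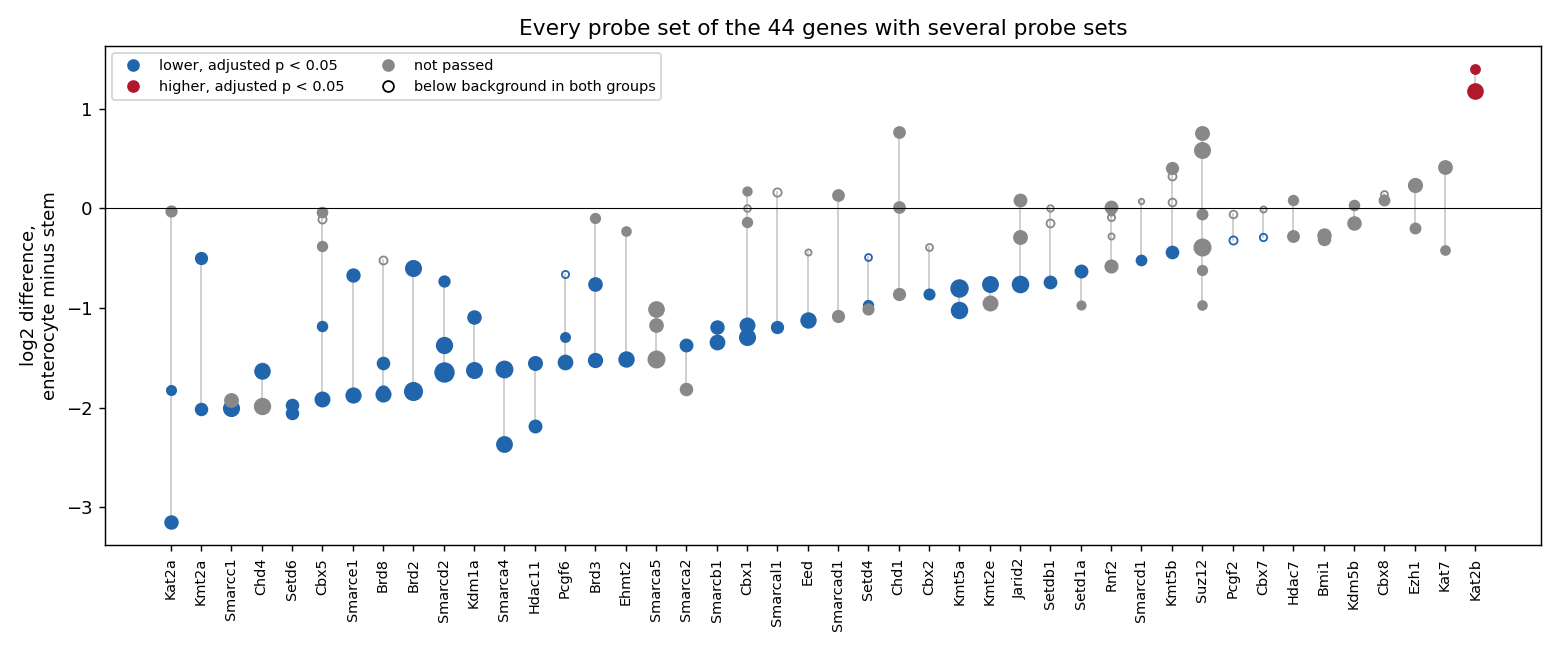
Log2 difference (enterocyte minus stem) of every probe set of the 44 genes with several probe sets, joined by a grey line per gene; larger points are brighter probe sets, open points lie below background in both groups, and colours give the call. Points of Kat2a, Cbx5, Chd1 and Suz12 are widely spread, while those of Setd6, Smarcb1 and Kat2b lie close together.

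The promoters of the set were searched for sites read by factors of the cell cycle and of growth. RefSeq promoter windows (GRCm38.p6, from 250 bases before to 50 after a start) matched 66 of the 79 genes with 90 windows. The E2F core, TTCGCGC or TTGGCGC on either strand, was in 6 of these windows (6.67%) against 6.17% of the 12566 windows of all genes tested. Windows of genes called lower held it in 4 of 49 (8.16%) and those of genes called higher in 0 of 5. The E-box CACGTG, the same on both strands, was in 9 of the 90 windows, against 9.11% of all. These shares are close to the backgrounds. The genes called lower with an E2F core were Ezh2, where it lies just after the start site, and Cbx1, Cbx6 and Kmt5a; for the last 3, and for Cbx5 with an E-box, the stretch around the match is shown, with the match in capitals, as letters of a window and not as a tested site.
Cbx1 (chr11:96789030-96789089, plus strand, match from -79 to -73): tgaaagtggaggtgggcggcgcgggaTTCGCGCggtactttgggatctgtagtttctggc
Cbx6 (chr15:79834419-79834478, minus strand, match from -119 to -113): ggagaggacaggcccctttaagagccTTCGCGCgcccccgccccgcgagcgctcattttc
Kmt5a (chr5:124439867-124439926, plus strand, match from -37 to -31): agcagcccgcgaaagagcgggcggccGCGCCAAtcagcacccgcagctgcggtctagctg
Cbx5 (chr15:103239955-103240014, minus strand, match from -136 to -131): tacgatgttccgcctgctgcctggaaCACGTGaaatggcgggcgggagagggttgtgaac
In the Kmt5a window the E2F core is read on the opposite strand. The median number of CG dinucleotides per window was 27 for the set and 17 over all genes tested.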

How the data were processed

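The values the authors deposited are normalized intensities, linear rather than log2; RMA is named, with no version, per the submitters' processing notes, and nothing used here states the scaling between arrays. They were converted to log2 without a pseudocount. Probe sets with exactly 1 symbol in the platform annotation (20380 of 22690) were used, 64 control probe sets and 691 with several symbols were not, and the brightest probe set stood for each of 12393 genes. Entrez identifiers of 20351 probe sets matched RefSeq (GRCm38.p6), used for names, and 0 symbols changed. Columns without a sample numbered 0. The groups were compared by a two-sided moderated test (limma 3.58.1, R 4.3.3) at a Benjamini-Hochberg adjusted p of 0.05 over all genes, on 2 residual and 1.23 prior degrees of freedom; the steps were tested on simulated data. Intervals are limma's 95% intervals, unadjusted. Where 1 group lay below background, the fold is the brighter mean over the other mean with each array raised to the background level (log2 5.90). Of the 24 background genes 1 passed the test, Myl7; of 8 measured reference genes, used in 1 alternative, 3 were higher, 2 lower and 3 did not pass.

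The members, roles, partner and marker lists were chosen with earlier results of these data known. Genes named are those past the threshold by at least 2-fold, the largest rise and fall of each role, and 36 fixed symbols, of which 31 were measured; this gave 49. Other members are named to complete a role, chosen after their values were seen. In the 79 genes both values of a group were identical (within 1e-09 on the log2 scale) in 4 cases for stem and 1 for enterocyte arrays, which lowers the spread seen. The number of arrays limits the precision. Alternatives covered the block, each array left out, scaling, the probe set per gene, background and the variance model.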

Additional observations from a re-analysis of the deposited data

How the results depend on the processing

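The numbers of calls, 3 higher and 46 lower, stayed within 1.5 times under quantile normalization, reference gene centring, the mean over probe sets and genes above background. They did so too under both other variance models, array weights and probe sets without an _a_at, _s_at or _x_at suffix. Single calls changed: of the 46 lower genes 40 were still lower with the mean over probe sets. Without suffixed probe sets 38 were, with 71 genes of the set left. The dimmest probe set gave 29 lower in the set, beside 1943 over all genes, with the set median at -0.46. Raising dim values to the background level gave 1 higher in the set, beside 1555 over all genes. The median was -0.62 with the mean over probe sets and -0.91 with reference gene centring, which moved the median of all genes to -0.06. Leaving out 1 array gave 0 to 1 higher, 0 to 19 lower and medians of -0.88 to -0.75. Among genes that passed, signs turned for Cbx1 (0.0028), Smarcal1 (0.16), Jarid2 (0.0823), Kmt5b (0.06) and Smarcd1 (0.07) on their dimmest probe sets. They turned for Cbx1 (0.17) and Jarid2 (0.0823) without suffixed probe sets, and for Kmt5b (0.09) with the mean over probe sets. Genes that did not pass turned too, among them Ezh1 (-0.20), Chd1 (0.01) and Kdm5b (0.03) on their dimmest probe sets. Suz12 (0.76) did so without suffixed probe sets. The cause was not tested. With the replicate number as a block 3 were higher and 44 lower, 2 and 39 of them among the calls above. Over all genes that fit called 2010 higher and 2557 lower. In it Setd3 (adjusted p = 0.0541 by limma) and Brd3 (0.0556) did not pass and Smarca5 (0.0405) did. Deviations of samples sharing a number correlated at 0.05 over genes, so the number is not taken as a pairing. Among named genes Chd4 passed under quantile normalization (adjusted p = 0.0203 by limma), reference gene centring, the mean over probe sets, genes above background and the robust model.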
